A study of Mus musculus with 12 samples.

Results

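The enzymes and transporters that make, break down and supply phosphatidylcholine in the heart were examined in mice lacking Gch1 in cardiomyocytes. They are 10 genes of the 26921 in the table of counts: Gpcpd1 and Gde1, which act on glycerophosphodiesters, the choline kinases Chka and Chkb, the cytidylyl transferases Pcyt1a and Pcyt2, the phosphotransferases Chpt1 and Cept1, and the choline transporter-like proteins Slc44a1 and Slc44a2. The 10 genes were chosen from the comparison of genotypes, in which Gpcpd1 had stood out, so their differences between genotypes are given below as a description without a test. RNA came from the left ventricle at 16 weeks of age, with 6 libraries of WT and 6 of cmGch1 KO mice. WT mice were homozygous for a Gch1 allele with loxP sites (Gch1 flox/flox). The cmGch1 KO mice were littermates that carried the same alleles and, in addition, 1 copy of a Cre recombinase transgene driven by the cardiomyocyte promoter of α-MHC. Mice with Cre and without floxed alleles are not among these libraries, so Cre and the loss of Gch1 cannot be told apart here.

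Phosphatidylcholine is the most abundant phospholipid of most mammalian membranes. In the Kennedy pathway, choline is taken up, phosphorylated by choline kinase, activated to CDP-choline by the cytidylyl transferase Pcyt1a, usually the rate-limiting step, and joined to diacylglycerol by Chpt1 or Cept1. Breakdown runs through removal of both fatty acids to glycerophosphocholine, which Gpcpd1 splits into choline and glycerol 3-phosphate, so that choline can be used again. Gch1 encodes GTP cyclohydrolase 1, the first enzyme of tetrahydrobiopterin synthesis.

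Libraries held between 19921398 and 37917806 counts. Levels are in cpm, counts divided by library size as scaled by the TMM factors of edgeR. Gch1 averaged 10.7 cpm ± 0.974 (SD, n = 6) in WT hearts, against 5.48 cpm ± 0.855 in cmGch1 KO hearts, and the genotypes did not overlap, and Gch1 was called, meaning that it passed a false discovery rate of 0.05 (log2 fold change -0.96 with a standard error of 0.11, edgeR quasi-likelihood test, adjusted p = 0.000688). The libraries labelled cmGch1 KO replicates 2 and 3 stood apart from the others. Xist, the RNA of the inactive X chromosome, reached 86.7 and 99.1 cpm in them and at most 0.234 cpm in the other 10, and 4 Y-linked genes had no counts in them and summed to between 167 and 192 cpm in the other 10. Mitochondrial genes took 14.9% and 16.1% of their counts, against 18.3% to 22.9% elsewhere. By Xist and the Y-linked genes, these libraries read as female and the other 10 as male, although the labels give no sex. No WT library read as female, so sex was not balanced between genotypes. Log2 fold changes without cmGch1 KO replicates 2 and 3 are therefore given beside those of the 10 genes and of the pathway genes with an unadjusted p under 0.05. The 6 cardiomyocyte markers summed to between 49486 and 53114 cpm in WT hearts, against between 43727 and 50734 cpm in cmGch1 KO hearts, and none was called, with 1 of the 6 higher in cmGch1 KO. The marker sums of endothelial cells (524 to 724 and 628 to 749.6 cpm), fibroblasts (499 to 652 and 529 to 696 cpm), smooth muscle and pericytes (834 to 953 and 874 to 1009 cpm) and macrophages (92.9 to 111 and 108 to 129 cpm, WT and cmGch1 KO in each case) overlapped between genotypes, and of these 20 genes Acta2 alone was called, higher in cmGch1 KO. All 5 endothelial, all 5 fibroblast and 4 of 5 macrophage markers had higher fitted levels in cmGch1 KO, and 2 of 5 of smooth muscle and pericytes did. The 5 adipocyte markers summed to at most 9.25 cpm. Atrial and erythroid markers varied widely between libraries of 1 genotype. The 4 atrial markers summed to between 7.62 and 284 cpm in WT hearts, against between 45.1 and 187 cpm in cmGch1 KO hearts. The 3 erythroid markers summed to between 358 and 1062 cpm and between 397 and 842 cpm. In this bulk tissue, fewer cells of a type and less RNA per cell cannot be told apart, and the part of these marker differences in the results was not tested.

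The level of Gpcpd1, the glycerophosphocholine phosphodiesterase, was lower in cmGch1 KO hearts than in WT hearts. Gpcpd1 (ENSMUSG00000027346) is encoded on chromosome 2 of GRCm38, at positions 132529082 to 132587729 of the minus strand. In WT it was at 164, 220.5, 222, 235, 185 and 179 cpm in replicates 1 to 6, and in cmGch1 KO at 134, 119, 125, 173, 115 and 136 cpm. Of the cmGch1 KO libraries, 5 lay below every WT library, and replicate 4, at 173 cpm, lay inside the WT range. The WT mean was 201 cpm ± 28.6 (SD, n = 6) and the cmGch1 KO mean was 134 cpm ± 21, or 66.6% of the WT mean. The log2 fold change was -0.59 with a standard error of 0.11. Over the 4 cmGch1 KO libraries other than replicates 2 and 3, the mean was 139.6 cpm ± 24.3 and the log2 fold change was -0.52.

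Gde1 (ENSMUSG00000033917, chr7:118688545-118705778, minus strand), the other glycerophosphodiesterase among the 10, which acts on glycerophosphoinositol and on N-acyl glycerophosphoethanolamines, had the same mean in both genotypes. It was at 42.3, 35.2, 37.6, 37.8, 32.4 and 33.7 cpm in WT hearts, against 45.5, 39.4, 34.8, 34.3, 32.5 and 32.6 cpm in cmGch1 KO hearts. The means were 36.5 cpm ± 3.55 and 36.5 cpm ± 5.07, and the ranges overlapped almost wholly. Its log2 fold change without cmGch1 KO replicates 2 and 3 was -0.01. Per kilobase of exon, the ratio of Gpcpd1 to Gde1 in the same library averaged 1.29 ± 0.206 in WT and 0.864 ± 0.183 in cmGch1 KO (SD, n = 6), with ranges of 0.902 to 1.45 and 0.685 to 1.17 that overlapped.

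The choline kinases, which make phosphocholine, were expressed at very different levels. Chkb (ENSMUSG00000022617, chr15:89426360-89429908, minus strand) was at 39.6, 31.0, 45.3, 52.2, 36.6 and 33.5 cpm in WT hearts, against 40.4, 30.1, 30.2, 40.6, 31.4 and 33.6 cpm in cmGch1 KO hearts. The 2 highest WT libraries, replicates 3 and 4, lay above all cmGch1 KO libraries, and the other 4 WT libraries overlapped with them. Its log2 fold change was -0.21 (standard error 0.13), -0.12 without cmGch1 KO replicates 2 and 3, and -0.11 without WT replicate 4, its highest library. Chka (ENSMUSG00000024843, chr19:3851773-3894369, plus strand) was at 6.32 to 9.99 cpm in WT hearts, against 6.57 to 10.3 cpm in cmGch1 KO hearts (log2 fold change 0.07, standard error 0.13). It was 0.16 without cmGch1 KO replicates 2 and 3 and -0.02 without cmGch1 KO replicate 6. Per kilobase of exon, Chkb exceeded Chka 21.1-fold ± 5.64 in WT and 17.4-fold ± 3.68 in cmGch1 KO. These ratios depend on the exon lengths used, 3061 bp for Chkb and 12024 bp for Chka. Not scaled by length, the WT means were 39.7 and 7.59 cpm. Of the exon length of Chkb, 50.7% (1552 of 3061 bp) is shared with the same-strand gene Gm44502, whose counts were not analysed here, so the counts of Chkb depend on how shared reads were treated.

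The cytidylyl transferases differed little between genotypes. Pcyt1a (ENSMUSG00000005615, chr16:32430921-32475070, plus strand), which makes CDP-choline, was at 119.9 to 145 cpm in WT hearts, against 107 to 140.4 cpm in cmGch1 KO hearts, with means of 133 ± 9.95 and 128 ± 12.4 cpm (log2 fold change -0.05, standard error 0.08, and 0.02 without cmGch1 KO replicates 2 and 3). Pcyt2 (ENSMUSG00000025137, chr11:120610087-120617936, minus strand), which makes CDP-ethanolamine for the parallel branch to phosphatidylethanolamine, was at 45.7 to 52.1 cpm in WT hearts, against 43.5 to 52.2 cpm in cmGch1 KO hearts (log2 fold change -0.08, standard error 0.06, and -0.02 without replicates 2 and 3). Its 3 lowest libraries were cmGch1 KO replicates 1, 2 and 3. Pcyt2 was the steadiest of the 10 across WT hearts, with a coefficient of variation of 4.38%, and Chkb the most variable at 19.9%.

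Chpt1 (ENSMUSG00000060002, chr10:88452745-88504073, minus strand), the cholinephosphotransferase of the last step, had the highest level of the 10, also per length. It was at 559.7, 482, 547, 629, 555 and 469 cpm in WT hearts, against 619, 369.5, 416, 472, 463 and 436 cpm in cmGch1 KO hearts. In cmGch1 KO, 4 libraries lay below every WT library, and replicate 1 lay near the top of the WT range. The log2 fold change was -0.22 (standard error 0.11), and -0.12 without replicates 2 and 3, the lowest libraries of all. Cept1 (ENSMUSG00000040774, chr3:106502260-106547802, minus strand), which can use CDP-choline or CDP-ethanolamine, was at 13.9 to 16.1 cpm in WT hearts, against 14.3 to 16.7 cpm in cmGch1 KO hearts (log2 fold change 0.02, standard error 0.07, and 0.05 without replicates 2 and 3).

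Of the choline transporter-like proteins, Slc44a2 (ENSMUSG00000057193, chr9:21320698-21355028, plus strand) showed the larger difference. It was at 74.4, 87.8, 80.1, 68.5, 77.1 and 75.2 cpm in WT hearts, against 66.2, 56.6, 60.9, 78.5, 69.4 and 67.7 cpm in cmGch1 KO hearts. Here too 4 cmGch1 KO libraries lay below every WT library, replicates 2 and 3 were the lowest, and replicate 4 lay within the WT range. The log2 fold change was -0.21 (standard error 0.08), and -0.13 without replicates 2 and 3. Slc44a1 (ENSMUSG00000028412, chr4:53440413-53622478, plus strand), which carries choline across plasma and mitochondrial membranes, was at 38.4 to 44.2 cpm in WT hearts, against 36.0 to 45.3 cpm in cmGch1 KO hearts (log2 fold change -0.04, standard error 0.07, and -0.02 without replicates 2 and 3).

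**Figure D1:**
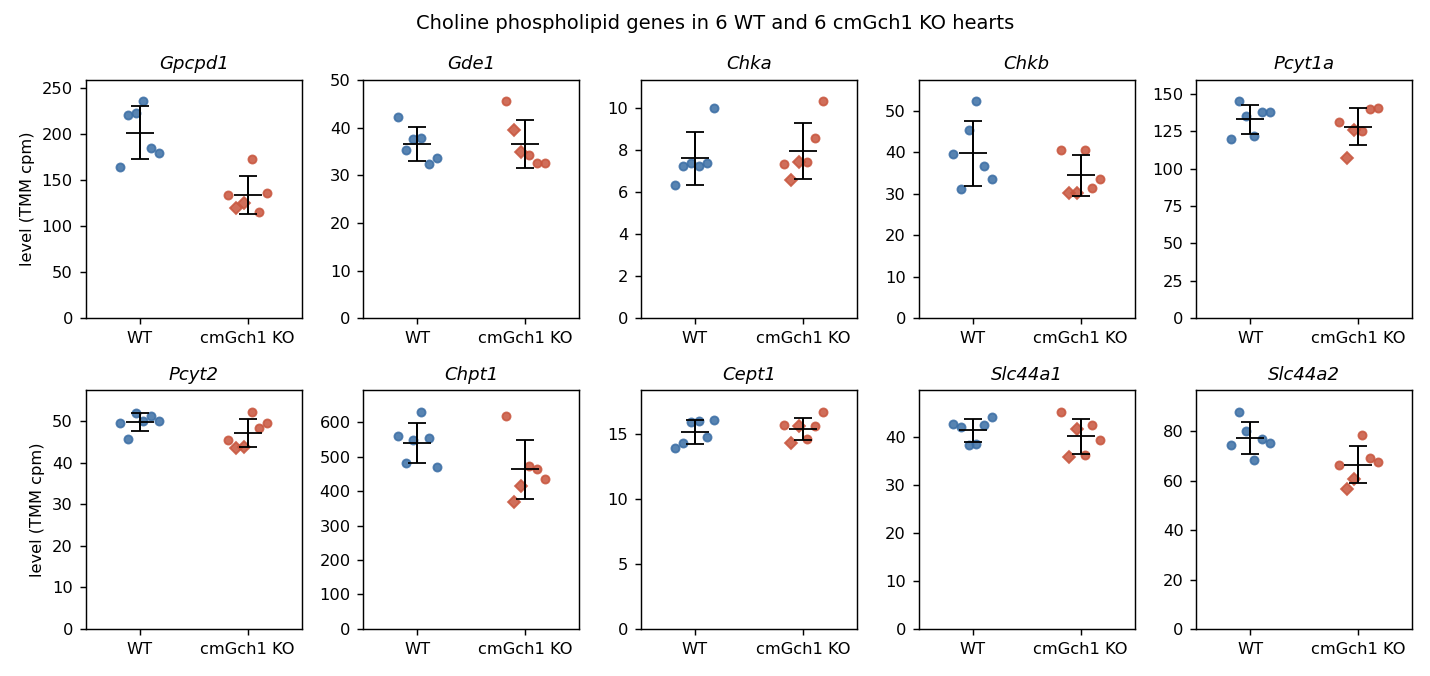
Level (TMM cpm, y axis from 0) of each of the 10 genes in 6 WT (blue) and 6 cmGch1 KO (red) libraries, ordered within a genotype from replicate 1 to 6; bars are mean ± SD, and diamonds are cmGch1 KO replicates 2 and 3. Gpcpd1 shows the clearest separation, with 5 cmGch1 KO libraries below all WT libraries, and none of the 10 genes separates the genotypes fully.

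All 10 genes passed the filter on low counts, and 8 of them had a negative log2 fold change, against 53.3% of the 11225 genes tested. The 8 include Gde1, whose fitted level in cmGch1 KO was 99.9% of that in WT. The median log2 fold change of the 10 was -0.06, and that of all tested genes was -0.01. Scaled by library totals alone, these medians were 0.01 and 0.07. The median of the 10 was -0.02 without cmGch1 KO replicates 2 and 3, and also in the fit that included sex-linked expression. At a false discovery rate under 0.05, 1 of the 10 was called lower, Gpcpd1, where 0.445% of all tested genes were called lower, and 0 were called higher, where 0.677% were. The genotypes did not overlap in 0 of the 10 and in 1.87% of all tested genes. The call of Gpcpd1 was lost without WT replicate 3, without cmGch1 KO replicate 3, without cmGch1 KO replicates 2 and 3 together, and in the fit that included sex-linked expression. Since this contrast chose the genes, nothing is read from these counts. Replicates 2 and 3 of cmGch1 KO held the lowest Chpt1, Slc44a2 and Chkb levels of all libraries.

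Levels between genes can be compared only per length of transcript, and this order does not rest on the genotype. In WT, Chpt1 led with 64.9 cpm per kb of exon ± 7.02 (SD, n = 6), 2.35 times the level of Gpcpd1, and its range did not meet that of any other. Gpcpd1 (27.6 ± 3.93 cpm per kb), Gde1 (21.6 ± 2.10), Pcyt1a (17.9 ± 1.34), Chkb (13.0 ± 2.58) and Pcyt2 (11.5 ± 0.502) followed, and each neighbouring pair among these overlapped in range. Within the same library, Gpcpd1 exceeded Gde1 in 5 of 6 WT libraries, Gde1 exceeded Pcyt1a in 6 of 6, Pcyt1a exceeded Chkb in 5 of 6 and Chkb exceeded Pcyt2 in 4 of 6. Below them, Slc44a2 (8.89 ± 0.744 cpm per kb), Slc44a1 (5.97 ± 0.341), Cept1 (4.87 ± 0.308) and Chka (0.631 ± 0.103) were each separated from the gene before. In cmGch1 KO the order was the same but for Gpcpd1, at 18.4 ± 2.88 cpm per kb, which stood after Gde1 at 21.6 ± 3.0. That change of place rests on the contrast that chose Gpcpd1. With the length of the longest coding transcript in place of all exons, 7 of the 10 kept their place, and Gde1 moved from place 3 to place 6. The place of Chkb also depends on how reads shared with Gm44502 were treated.

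**Figure D2:**
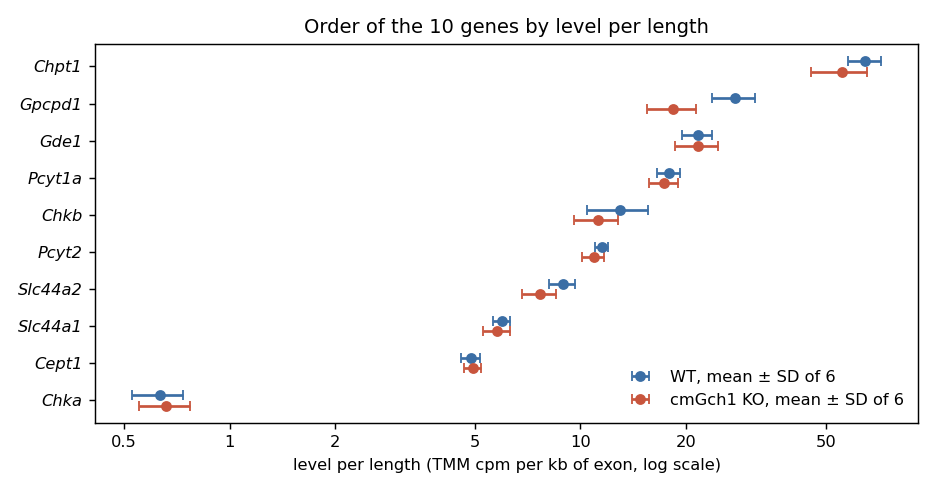
Level per length (TMM cpm per kb of exon, log axis) of the 10 genes in WT (blue) and cmGch1 KO (red), as mean ± SD of 6 libraries, sorted by the WT mean. Chpt1 is highest and Chka lowest in both genotypes. Gpcpd1 and Gde1, whose WT ranges overlap, change places by exon length, a change that rests on the contrast that chose Gpcpd1. By the longest coding transcript they are at places 2 and 6 in WT.

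To set these genes in their pathway, 70 further genes of phospholipid metabolism in 10 groups were examined, of which 46 passed the filter. None was called between genotypes by edgeR's quasi-likelihood test at a false discovery rate under 0.05. Their median log2 fold change was 0.01, with 25 positive and 21 negative values. At an unadjusted p under 0.05, 4 were higher in cmGch1 KO (8.70%, against 7.01% of all tested genes) and 3 were lower (6.52%, against 4.51%). The Wald test of DESeq2 called 1 of the 46 lower, Stard7, and 2 higher, Pctp and Lclat1. That test called 155 lower and 218 higher of all 11225 tested genes, more than edgeR did.

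Among the other glycerophosphodiesterases, Gdpd1, a lysophospholipase D of the same family as Gde1, was at 12.3 to 13.6 cpm in WT hearts, against 13.1 to 16.0 cpm in cmGch1 KO hearts (log2 fold change 0.20 with a standard error of 0.07, edgeR adjusted p = 0.205, and 0.24 without cmGch1 KO replicates 2 and 3). Enpp2, or autotaxin, which takes choline from lysophosphatidylcholine outside the cell, was at 9.35 to 13.7 cpm and 7.92 to 10.1 cpm (log2 fold change -0.31 with a standard error of 0.11, edgeR adjusted p = 0.248, and -0.26 without the same libraries). Gdpd5, which had the highest cpm of this group, not scaled by length, is another glycerophosphocholine phosphodiesterase and was at 25.8 ± 1.99 and 23.9 ± 2.11 cpm. Its log2 fold change was -0.11 (standard error 0.08).

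Deacylation, which feeds glycerophosphocholine to Gpcpd1, held 10 tested genes with a median log2 fold change of 0.02, and none had an unadjusted p under 0.05. Pla2g16, with the highest cpm, was at 151 ± 13.3 cpm in WT hearts, against 135 ± 17.0 cpm in cmGch1 KO hearts (log2 fold change -0.16, standard error 0.09). Among 4 reacylation genes, Lclat1, a lysocardiolipin acyltransferase, was at 131 to 175 cpm in WT hearts, against 153 to 209 cpm in cmGch1 KO hearts (log2 fold change 0.33 with a standard error of 0.09, edgeR adjusted p = 0.126), and the change was 0.27 without cmGch1 KO replicates 2 and 3. Without cmGch1 KO replicate 1, its lowest library of that genotype, Lclat1 alone of the 46 was called. That fit called 97 lower and 116 higher of all tested genes. Mboat2, a lysophospholipid acyltransferase, was at 4.93 to 6.72 cpm and 3.84 to 5.60 cpm (log2 fold change -0.38 with a standard error of 0.12, edgeR adjusted p = 0.201, and -0.31 without cmGch1 KO replicates 2 and 3).

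Phosphatidylcholine transfer held the gene with the largest log2 fold change of the list. Pctp, the phosphatidylcholine transfer protein, was at 6.88, 5.36, 6.78, 6.53, 6.22 and 4.24 cpm in WT hearts, against 9.16, 10.3, 9.42, 8.58, 7.25 and 6.45 cpm in cmGch1 KO hearts. Of the cmGch1 KO libraries, replicate 6 alone lay inside the WT range. Its log2 fold change was 0.50, with a standard error of 0.14 and an edgeR adjusted p of 0.126, and was 0.39 without cmGch1 KO replicates 2 and 3. Stard7, which carries phosphatidylcholine to mitochondria, was at 206 to 215 cpm in WT hearts, against 183 to 196 cpm in cmGch1 KO hearts. Its genotypes did not overlap, yet the difference was small (log2 fold change -0.12 with a standard error of 0.05, edgeR adjusted p = 0.345). It was also -0.12 without cmGch1 KO replicates 2 and 3, and -0.04 when libraries were scaled by their totals alone, a scaling that moved the median of all tested genes to 0.07.

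In the ethanolamine branch, Selenoi, the ethanolaminephosphotransferase, was at 15.6 to 22.2 cpm in WT hearts, against 17.9 to 27.4 cpm in cmGch1 KO hearts (log2 fold change 0.25 with a standard error of 0.11, edgeR adjusted p = 0.434, and 0.27 without cmGch1 KO replicates 2 and 3). Etnk1, the ethanolamine kinase, was at 48.5 ± 7.5 and 48.9 ± 4.68 cpm. The remaining groups held no gene with an unadjusted p under 0.05. The genes with the highest cpm in them, not scaled by length, were Ptdss1 of head-group exchange (72.0 ± 2.17 and 70.6 ± 5.96 cpm), Pld2 among phospholipases D (9.26 ± 0.954 and 9.48 ± 0.975 cpm), Agpat3 of diacylglycerol supply (217 ± 12.8 and 215 ± 23.7 cpm), Smpd1 of sphingomyelin breakdown (205 ± 12.3 and 212 ± 11.6 cpm) and Aldh7a1 of choline oxidation (43.6 ± 2.48 and 41.9 ± 1.84 cpm). All these values are mean ± SD over 6 libraries, WT first.

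**Figure D3:**
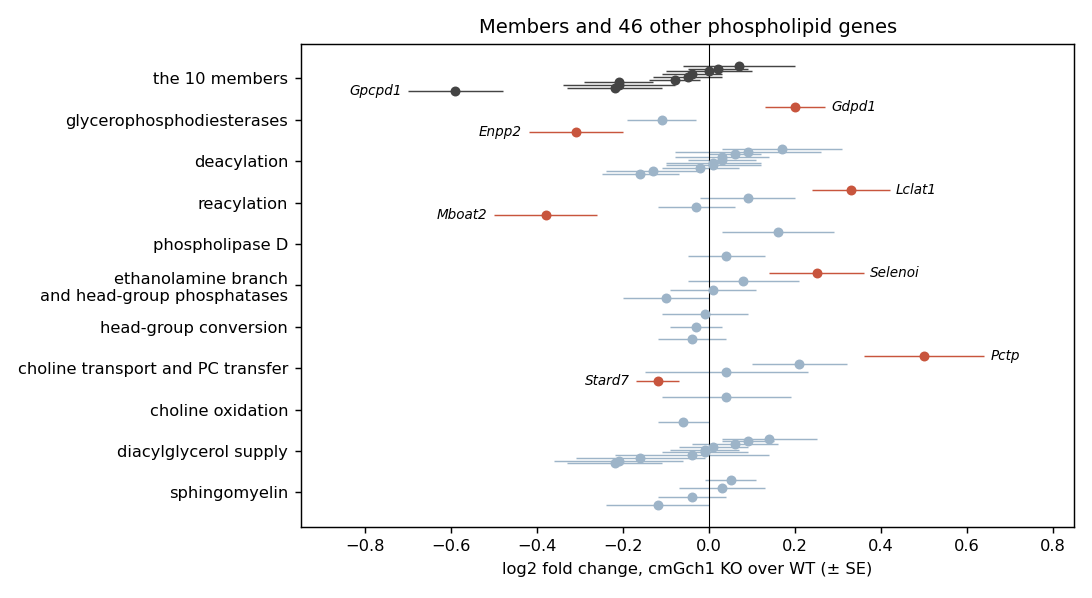
Log2 fold change of cmGch1 KO over WT (x axis, ± standard error) for the 10 genes (dark) and the 46 tested genes of the other groups (pale, or red and named at an unadjusted p under 0.05). Gpcpd1, chosen for its difference, is at -0.59, and the 46 genes run from -0.38 to 0.50.

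Gpcpd1 also varied among hearts of 1 genotype, between 164 and 235 cpm in WT, and this variation does not rest on the contrast that chose it. Each genotype's mean log2 cpm was subtracted, and the Pearson correlation with Gpcpd1 over the 12 libraries was computed for the other 11224 tested genes as a description. All values of a correlation share the same libraries and their depth. The median r was 0.02, with 24 genes at 0.8 or above (0.214%) and 34 at -0.8 or below (0.303%).

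The 5 genes most like Gpcpd1 were Pfkfb1 (r = 0.94, Spearman rho = 0.91), Tmem179 (0.93 and 0.83), Dbp (0.91 and 0.90), Slc25a13 (0.90 and 0.86) and Nr1d2 (0.90 and 0.92). Dbp is a transcription factor driven by the circadian clock, and Nr1d2, or REV-ERBβ, is a repressor within the clock. Pfkfb1 makes and removes fructose 2,6-bisphosphate, and Slc25a13 is a mitochondrial aspartate-glutamate carrier. The 3 genes most opposed to Gpcpd1 were Tmprss13, a serine protease (r = -0.93, rho = -0.92), Mapre1, which binds microtubule ends (-0.91 and -0.83), and Nfil3, a repressor that competes with Dbp for the same DNA sites (-0.90 and -0.87). Within WT alone these 8 correlations had sizes from 0.86 to 0.97, and within cmGch1 KO alone from 0.85 to 0.98, each over 6 libraries and each with the sign of the pooled value. Libraries of the same number in both genotypes went together for some of these genes, so the values within WT and within cmGch1 KO are not separate from each other. Leaving out the 2 libraries farthest from the median of each gene left sizes from 0.80 to 0.91.

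Dbp was at 11.4, 43.5, 54.8, 81.4, 12.7 and 10.2 cpm in WT hearts, against 16.7, 17.9, 25.3, 73.7, 7.64 and 13.9 cpm in cmGch1 KO hearts. WT replicates 2, 3 and 4 and cmGch1 KO replicate 4 were therefore high, and these were also the highest Gpcpd1 libraries of their genotypes. The other 8 libraries were at 25.3 cpm or below. These 8 were set apart after the values were seen and by the level of Dbp itself, which narrows its range and that of genes that vary with it and so lowers r by construction. Within them, the correlation with Gpcpd1, genotype means again removed, was 0.35 for Dbp, 0.39 for Tmem179 and -0.41 for Nfil3. It was 0.85 for Nr1d2, 0.83 for Slc25a13, 0.66 for Pfkfb1, -0.59 for Mapre1 and -0.89 for Tmprss13.

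Other clock genes stood on the same sides. The clock activators Arntl, which encodes BMAL1, and Npas2 had r of -0.89 and -0.85, and Nr1d1, Tef, Per2, Per3 and Per1 had r of 0.82, 0.74, 0.67, 0.66 and 0.62. Without the 2 libraries farthest from each gene's median, r was -0.80 for Arntl, -0.75 for Npas2 and, in the same order, 0.74, 0.65, 0.59, 0.52 and 0.38 for the others. Within the 8 libraries with lower Dbp it was -0.48 for Arntl, -0.29 for Npas2 and between 0.44 and 0.56 for the others. None of the 9 clock genes tested was called between genotypes by edgeR. Tef had the lowest adjusted p among those named, at 0.187 (log2 fold change -0.57, standard error 0.18), with a mean of 107 cpm in WT hearts, against 72.0 cpm in cmGch1 KO hearts, or 83.5 cpm without replicates 2 and 3, and Dbp was at -0.46 with a standard error of 0.59. With the log2 level of Dbp as a covariate, a setting chosen after these values were seen, the log2 fold change of Gpcpd1 was -0.52, against -0.59 without it. The time of day at which tissue was taken is not given in the sources used here, and its part in these values was not tested.

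Of the 8 genes named for likeness, 3 were also called between genotypes, where 1.12% of all tested genes were called in either direction. Pfkfb1 was at 6.98 to 15.7 cpm in WT hearts, against 2.57 to 6.99 cpm in cmGch1 KO hearts (log2 fold change -1.37 with a standard error of 0.26, edgeR adjusted p = 0.0158). Slc25a13 was at 137 to 150.5 cpm and 108 to 128 cpm, without overlap (log2 fold change -0.28 with a standard error of 0.06, edgeR adjusted p = 0.0281). Tmprss13 was at 1.31 to 2.39 cpm and 3.06 to 6.62 cpm, also without overlap, and passed the filter only through cmGch1 KO (log2 fold change 1.40 with a standard error of 0.20, edgeR adjusted p = 0.0032). Both genes with a positive correlation were lower in cmGch1 KO, as Gpcpd1 was, and Tmprss13, with a negative one, was higher. Gpcpd1 was chosen from the comparison of genotypes, and these genes for varying with it over the same libraries. Nothing is therefore read from their directions or from the count of 3. Without cmGch1 KO replicates 2 and 3, Tmprss13 was still called (log2 fold change 1.30, adjusted p = 0.039 by edgeR), and Pfkfb1 (-1.24, adjusted p = 0.141) and Slc25a13 (-0.25, adjusted p = 0.199) were not. Over all alternatives in which they could be fitted, with edgeR, DESeq2 or limma, Tmprss13 was called in 22 of 22 (adjusted p from 2.21e-08 to 0.039), Pfkfb1 in 20 of 22 (9.92e-06 to 0.141) and Slc25a13 in 12 of 23 (2.17e-05 to 0.199). Tmprss13 entered the tested genes only through cmGch1 KO, where it was high, so nothing is read from its calls.

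**Figure D4:**
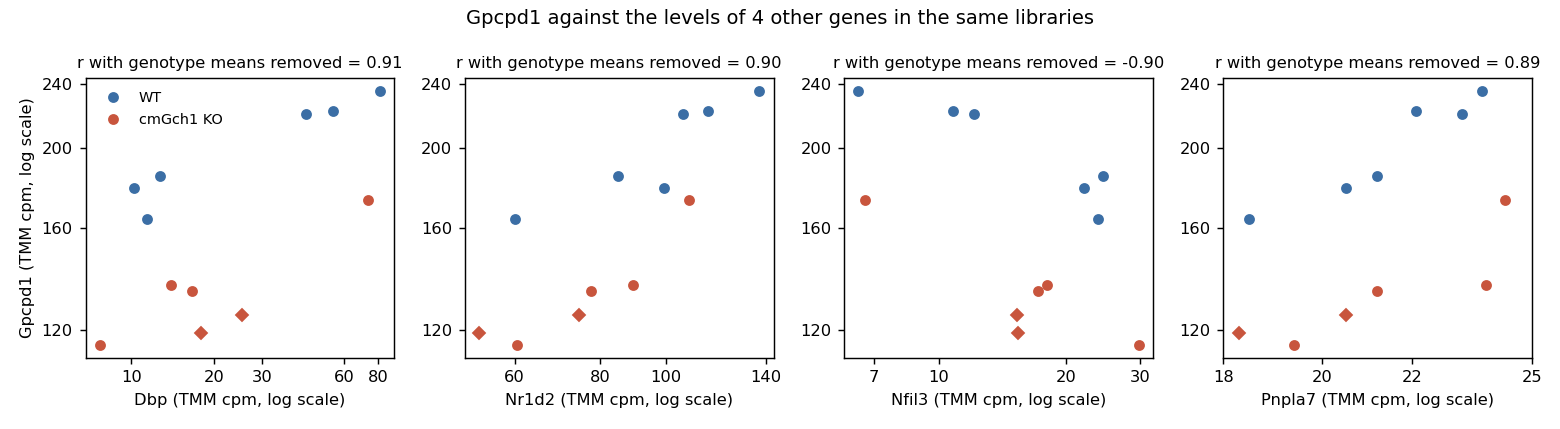
Gpcpd1 (TMM cpm, log axis) against Dbp, Nr1d2, Nfil3 and Pnpla7 (TMM cpm, log axes) in WT (blue) and cmGch1 KO (red) libraries, with cmGch1 KO replicates 2 and 3 as diamonds; r is given over 12 libraries after the genotype means were removed. The cmGch1 KO libraries lie lower on the Gpcpd1 axis, the difference for which Gpcpd1 was chosen, so nothing is read from that offset. The r values run from -0.90 for Nfil3 to 0.91 for Dbp.

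By the median, the rest of the choline phospholipid genes did not follow Gpcpd1 closely, although single genes did. The other 9 genes had r to Gpcpd1 from -0.52 for Slc44a1 to 0.57 for Chkb, with a median of 0.16, and the 46 pathway genes had a median of 0.14, against 0.02 over all tested genes. After the 2 libraries farthest from the median were left out, r was 0.22 for Chkb and -0.63 for Slc44a1. Of the 46, Pnpla7 alone was at 0.8 or above, at place 7 of 11224 (r = 0.89, rho = 0.92). Below 0.8, Gpam (0.79), Gpd1 (0.68), Smpd2 (0.63) and Lpin2 (0.61) had r above that of 99.7%, 98.8%, 98.3% and 97.8% of the other tested genes. Lpcat1 (-0.79) was above only 0.312% of them. Without the 2 libraries farthest from each gene's median, r was 0.61, 0.54, 0.61, 0.73 and -0.81 in that order. All these genes were named after their values were seen. Pnpla7 is a lysophospholipase that forms glycerophosphocholine, the substrate of Gpcpd1. It was at 18.5, 23.2, 22.1, 23.7, 21.2 and 20.5 cpm in WT hearts, against 21.2, 18.3, 20.5, 24.3, 19.4 and 23.8 cpm in cmGch1 KO hearts. It averaged 21.5 ± 1.91 cpm in WT hearts, against 21.3 ± 2.37 cpm in cmGch1 KO hearts (log2 fold change -0.02, standard error 0.09), and within the 8 libraries with lower Dbp its r was 0.89.

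Because several of these genes are clock genes, the promoters were searched for the letters that clock factors are known to bind. They were CACGTG, the E-box of BMAL1 complexes, and TTATGNAA, a D-box of Dbp, Tef and Nfil3, on both strands from 250 bases before to 50 bases after each start in RefSeq on GRCm38. CACGTG occurred in 7.15% and TTATGNAA in 3.38% of all 32851 such windows. A gene can have more than 1 window, so these are shares of windows and not of genes. Of the 10 choline phospholipid genes, Gpcpd1 and Pcyt2 had no window, so the promoter of Gpcpd1 was not searched. The other 8 had 14 windows, none with CACGTG and 1, of Gde1, with TTATGNAA. Of the 8 genes named for likeness, Tmprss13 had no window, and the other 7 had 10 windows. CACGTG stood in those of Slc25a13, 125 bases before the start, and of Mapre1, also 125 bases before it, although their r to Gpcpd1 had opposite signs, and Pnpla7 had it 63 bases before the start and again at base 25 after it. The matches before the start are printed on the strand of its gene, 5′ to 3′, with the matched letters in capitals, from chr6:6217266-6217325 for Slc25a13, chr2:153741135-153741194 for Mapre1, chr2:24975943-24976002 for Pnpla7 and chr7:118705877-118705938 for Gde1. TTATGNAA stood in none of the 10 windows of the 7 genes named for likeness, and those of Dbp, Nr1d2 and Nfil3 held neither sequence. A match describes letters and does not show a bound site, and nothing is read from a window without a match.
Slc25a13: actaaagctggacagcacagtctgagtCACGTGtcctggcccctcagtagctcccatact
Mapre1: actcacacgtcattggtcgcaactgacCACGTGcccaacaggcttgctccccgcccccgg
Pnpla7: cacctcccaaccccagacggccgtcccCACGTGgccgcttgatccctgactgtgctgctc
Gde1: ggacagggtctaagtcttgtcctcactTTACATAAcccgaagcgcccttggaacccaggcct
The Gde1 match is the D-box read from the other strand. Gde1 itself had an r of -0.07 to Gpcpd1.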

How the data were processed

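RNA-seq of left ventricle from 6 WT and 6 cmGch1 KO mice was used, grouped by the genotype in the labels. Nothing in the labels gives dates or batches. Per the paper's methods, the authors made stranded paired-end libraries with dUTP and counted reads with HISAT2, Picard and featureCounts. They deposited raw counts per Ensembl gene, and normalized values on a log2 scale with the same genes. The submitters' processing notes name GRCm38. Which annotation and which strand option featureCounts used is not given in the sources used here, so genes that overlap on opposite strands may share reads: of the exon length of Cept1 24.7% overlaps Dennd2d, and of that of Chpt1 7.93% overlaps Sycp3. Symbols and coordinates came from GENCODE M21 on GRCm38, which matched 98.6% of the identifiers.

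The counts were fitted by genotype without covariates with edgeR 4.0.16 in R 4.3.3 (quasi-likelihood test, TMM, cpm over 3 in at least 6 libraries, Benjamini-Hochberg false discovery rate under 0.05). The fit was tested on simulated data. Correlations used log2 cpm with a prior count of 2. A count of 0 allows up to 3 counts, or 0.0791 to 0.151 cpm by library, for counting error only. Pairs of libraries of 1 genotype differed beyond sampling noise, with a chi-square per degree of freedom of at least 9.96. Per the paper's methods, 1 animal is the unit counted as n; the labels only number the libraries.

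The 10 genes and the lists were chosen with earlier results of these data known. Named are the 10 genes, Gch1, Xist, pathway genes with an unadjusted p under 0.05, the pathway gene of each group with the highest mean cpm, not scaled by length, the 5 genes most like and the 3 most opposed to Gpcpd1, and clock genes that moved with it. Alternatives were the size factors and the Wald test of DESeq2 1.42.0, library size alone, other filters, limma 3.58.1 on the deposited log2 values, a replicate block, sex-linked expression, 1 surrogate variable (sva 3.50.0), leaving out libraries, and Dbp as a covariate, added after the data were seen.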

Additional observations from a re-analysis of the deposited data

Results flagged for a closer look

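Over 78 groups of 6 libraries, from 39 genes named in the text, 8 held a library far from the others, by a gap to its nearest neighbour of more than 0.625 of the group's range. Chance flags about 1 in 20 such groups. In cmGch1 KO, replicate 4 was the high library for Gpcpd1 (173 cpm, next 136 cpm), Pfkfb1 (6.99 cpm, next 3.64), Tmem179 (7.5 cpm, next 4.69) and Dbp (73.7 cpm, next 25.3). These 4 genes were named because they vary together, so they are not separate occurrences. Replicate 1 was the high cmGch1 KO library for Pla2g16, the gene of the deacylation group with the highest cpm, at 169.7 cpm with the next at 129.8 cpm. Replicate 5 was the low cmGch1 KO library for Stard7, at 183 cpm with the next at 192 cpm. In WT, replicate 6 was high for Chka (9.99 cpm, next 7.39) and replicate 2 for Aldh7a1 (48.2 cpm, next 43.7).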

How the results depend on the processing

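The log2 fold change of Gpcpd1 ran from -0.67 to -0.51 over 23 alternatives, a description, since this contrast chose the gene. The count of called genes among the 10 was 0 with sex-linked expression as a covariate, without cmGch1 KO replicates 2 and 3 together, without WT replicate 3 and without cmGch1 KO replicate 3, and ranged from 0 to 1 over the fits that left out 1 library. The cause was not tested. For all tested genes, 50 lower and 76 higher, the counts were 155 and 218 by the Wald test of DESeq2, 334 and 305 with 1 surrogate variable, 24 and 40 with sex-linked expression, and 18 and 20 without cmGch1 KO replicates 2 and 3 together. Leaving out 1 library gave 30 to 97 lower and 45 to 116 higher, with the most without cmGch1 KO replicate 1 and the fewest without WT replicate 3. Library size alone gave 36 lower and 116 higher. Pathway genes called were 1 lower and 2 higher by DESeq2, 4 higher with 1 surrogate variable (Gdpd1, Lclat1, Pctp and Selenoi), and 0 to 1 higher over the fits that left out 1 library. The pathway median was 0.08 with library size alone, where the median of all tested genes was 0.07. Among single genes, Stard7 moved to -0.04 with that scaling, and no value of a named member moved by more than the spread between libraries. With the replicate block, 76 genes were lower and 112 higher, Gpcpd1 was at -0.59 and still called, and no pathway gene was called. Libraries of the same number did not all deviate together, with correlations from -0.128 to 0.676, so the numbers were not taken as pairs. The block took the standard error from 0.59 to 0.24 for Dbp, 0.35 to 0.13 for Nfil3 and 0.26 to 0.13 for Pfkfb1, so same-numbered libraries went together for these genes. Depth limits Chka most, at 142 to 373 counts per library.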

Other observations

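Bhmt, which uses the choline metabolite betaine to remethylate homocysteine and is known as a liver and kidney enzyme, did not pass the filter on low counts. It was at 2.26 cpm in WT replicate 2, at 0.0925 and 0.172 cpm in cmGch1 KO replicates 2 and 3, and had no counts in the other 9 libraries. Alb, the gene of serum albumin, and Apoa1, both looked up after the values of Bhmt were seen, were also highest in WT replicate 2, at 30.4 and 5.13 cpm, against at most 1.30 and 0.344 cpm in every other library.

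Among the pathway genes, Gpam, the mitochondrial glycerol 3-phosphate acyltransferase, and Lpcat1, a lysophosphatidylcholine acyltransferase, were next to Pnpla7 in the size of their correlation with Gpcpd1, at 0.79 and -0.79 over 12 libraries with genotype means removed. Within the 8 libraries with lower Dbp, where the range is narrower by construction, they were at -0.17 and 0.16. These genes were named after their values were seen.

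Of the 24 genes with r of 0.8 or above to Gpcpd1, 18 had a negative log2 fold change between genotypes and 3 were called lower (Pfkfb1, Slc25a13 and Slc40a1), against 53.3% negative and 0.445% called lower over all tested genes. Of the 34 genes with r of -0.8 or below, 29 had a positive one and 1 was called higher, Tmprss13, against 0.677% called higher over all tested genes. Their medians were -0.06 and 0.06, against -0.01 over all tested genes. The limit of 0.8 was set after the values were seen. These genes were picked for varying with Gpcpd1, which was itself chosen from the comparison of genotypes. They are therefore not separate observations, and nothing is read from these counts. Tmprss13 passed the filter on low counts only through cmGch1 KO.

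Slc51a, which shares 567 bp of exon with Pcyt1a on the opposite strand, was at 0.274 to 0.411 cpm in WT and 0.899 to 2.67 cpm in cmGch1 KO without overlap. It did not pass the filter on low counts and was looked up for its overlap with Pcyt1a.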
